A study of Mus musculus with 3 samples.

Results

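The integrated and endoplasmic reticulum (ER) stress response was followed through 9 genes named by symbol (Atf4, Atf3, Ddit3, Xbp1, Trib3, Asns, Chac1, Sesn2 and Herpud1), out of 17992 gene symbols counted in mouse brain RNA. All 9 were among the counted genes. Adult C57BL/6 mice of wild-type genotype gave 3 brain libraries, 1 in each group, with no replicate. The Sham library came from operated controls and the Vehicle library from mice with middle cerebral artery occlusion, an experimental stroke that cuts blood flow to much of one hemisphere. The AGNHW library came from mice given AGNHW, a traditional Chinese medicine preparation, at 3 mg/g/d; the labels do not say whether these mice were also occluded. Brain region, time after surgery and the number of mice per library are not stated in the labels, and 1 library cannot show how mice of a group vary.

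Cells under stress phosphorylate the translation initiation factor eIF2, which slows protein synthesis as a whole while the mRNA of the transcription factor ATF4 is translated more. ATF4 in turn activates genes of amino acid supply, of redox balance and, with its partner CHOP (encoded by Ddit3), of cell death. Unfolded protein in the ER feeds into this pathway through the kinase PERK, and in parallel acts through IRE1, which splices the Xbp1 mRNA, and through ATF6. Ischaemia is a known trigger of these pathways in neurons. Because ATF4 and XBP1 are controlled by translation and by splicing, gene-level counts of Atf4 and Xbp1 measure mRNA amount and not the activity of either factor.

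The sequences just upstream of 5 of the genes are shown because they hold elements through which the pathway is known to act, or belong to the gene with the clearest difference between libraries. Each is the 250 bases before the annotated start, from RefSeq, printed 5′ to 3′ on the gene's strand, with motif matches in capitals. The motifs searched on both strands were TTGCATCA and its looser form TTNCATCA (the C/EBP-ATF response element bound by ATF4 with a partner), CCACG (part of the ER stress response element) and the second ER stress response element (ATTGG, any base, CCACG).
Atf3, GRCm38.p6 chr1:191183334-191183583, - strand: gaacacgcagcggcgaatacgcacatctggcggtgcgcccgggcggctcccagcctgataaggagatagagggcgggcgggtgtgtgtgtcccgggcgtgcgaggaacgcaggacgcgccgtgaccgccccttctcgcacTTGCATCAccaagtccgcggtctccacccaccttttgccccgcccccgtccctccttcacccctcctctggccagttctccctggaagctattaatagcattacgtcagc
Chac1, GRCm38.p6 chr2:119350992-119351241, + strand: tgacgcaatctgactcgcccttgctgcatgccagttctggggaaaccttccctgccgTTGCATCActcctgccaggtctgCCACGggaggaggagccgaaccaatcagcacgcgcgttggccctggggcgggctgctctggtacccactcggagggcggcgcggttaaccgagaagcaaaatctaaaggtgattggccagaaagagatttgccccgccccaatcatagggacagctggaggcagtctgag
Herpud1, GRCm38.p6 chr8:94386179-94386428, + strand: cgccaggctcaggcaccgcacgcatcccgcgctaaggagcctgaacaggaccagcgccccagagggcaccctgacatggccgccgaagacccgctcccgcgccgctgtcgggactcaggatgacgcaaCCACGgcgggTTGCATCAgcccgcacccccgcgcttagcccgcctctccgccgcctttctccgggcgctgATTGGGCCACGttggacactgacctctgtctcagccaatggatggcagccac
Asns, GRCm38.p6 chr6:7693210-7693459, - strand: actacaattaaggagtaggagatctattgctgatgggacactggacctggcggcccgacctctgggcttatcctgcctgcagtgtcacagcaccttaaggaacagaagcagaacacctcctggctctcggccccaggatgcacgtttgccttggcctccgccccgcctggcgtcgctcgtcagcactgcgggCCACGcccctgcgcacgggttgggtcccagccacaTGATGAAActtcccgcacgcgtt
Sesn2, GRCm38.p6 chr4:132510457-132510706, - strand: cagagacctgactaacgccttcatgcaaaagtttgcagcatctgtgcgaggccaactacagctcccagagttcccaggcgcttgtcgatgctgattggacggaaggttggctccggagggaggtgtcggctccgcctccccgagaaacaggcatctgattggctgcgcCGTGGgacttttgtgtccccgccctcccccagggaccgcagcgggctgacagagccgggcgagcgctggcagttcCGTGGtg

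TTGCATCA lay upstream of Atf3 (110 to 103 bases before the start), Chac1 (193 to 186) and Herpud1 (112 to 105), against 0.792% of 32841 upstream windows of the same length over all genes. TTNCATCA, which includes those matches, added Asns, where it was found on the opposite strand as TGATGAAA at 23 to 16 bases before the start; 3.45% of all windows held it. The second ER stress response element was added to the search after the sequences had been read. It was found upstream of Herpud1 at 52 to 42 bases before the start, over a CCACG match, and in 0.0304% of all windows. CCACG alone was found in 28.4% of all windows and in 5 of the 9 genes (Atf4, Asns, Chac1, Sesn2, Herpud1), so its presence is common. The full ER stress response element (CCAAT, any 9 bases, CCACG), the unfolded protein response element TGACGTGG and the cyclic AMP response element TGACGTCA had 0 matches in these windows of the 9 genes, which says only that these letters are not in these windows. The Herpud1 window ends in CCAAT, 9 bases and CCAC, short of the last base of the full ER stress response element. The base that follows was not searched, so the 0 matches leave this site undecided. A match describes the letters and not a site in use.

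The libraries held 15718594 to 18286151 counts, scaled below to a common total as CPM (the usual scaling of counts to library size) by TMM, edgeR's trimmed mean method. All 10 neuron markers examined were counted in each library, with summed levels of 6859 to 7208 CPM, as were 8 of 8 astrocyte, oligodendrocyte, microglia and endothelial markers each. Summed levels in sham, vehicle and AGNHW were 3685, 3464 and 3514 CPM for astrocyte markers, 7283, 9460 and 8869 CPM for oligodendrocyte markers, 333, 298 and 310.03 CPM for microglia markers and 212, 193 and 211 CPM for endothelial markers. The vehicle library stood apart by its pituitary transcripts. The 10 pituitary markers counted summed to 5.58, 3751 and 5.80 CPM in sham, vehicle and AGNHW, and Gh, Prl, Ghrhr and Tbx19 were at 0 in sham and Cga, Pitx1 and Tbx19 at 0 in AGNHW. Summed red blood cell markers were 52.8, 163 and 65.1 CPM in the same order, and choroid plexus markers 543, 969 and 661 CPM. In such tissue RNA a change in the share of a cell type and a change in its RNA per cell cannot be told apart.

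Levels of different genes were compared per kilobase of the longest annotated transcript. In sham the order was Atf4 (63.9 CPM per kb), Asns (37.5), Xbp1 (35.6), Ddit3 (25.4), Herpud1 (25.3), Chac1 (4.80), Sesn2 (4.10), Trib3 (0.289) and Atf3 (0.161). The 95% counting intervals of the neighbours Asns and Xbp1, Ddit3 and Herpud1, and Trib3 and Atf3 overlapped, and those of Chac1 (4.06 to 5.64) and Sesn2 (3.62 to 4.62) did too. The pathway's main factor was the most abundant of the 9 mRNAs, and the stress-induced factor Atf3 and the pseudokinase gene Trib3 were near the limit of detection, at 6 to 12 and 7 to 23 counts. In vehicle Sesn2 (7.53 CPM per kb) stood above Chac1 (5.14), and in AGNHW likewise (6.52 and 4.15).

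**Figure D1:**
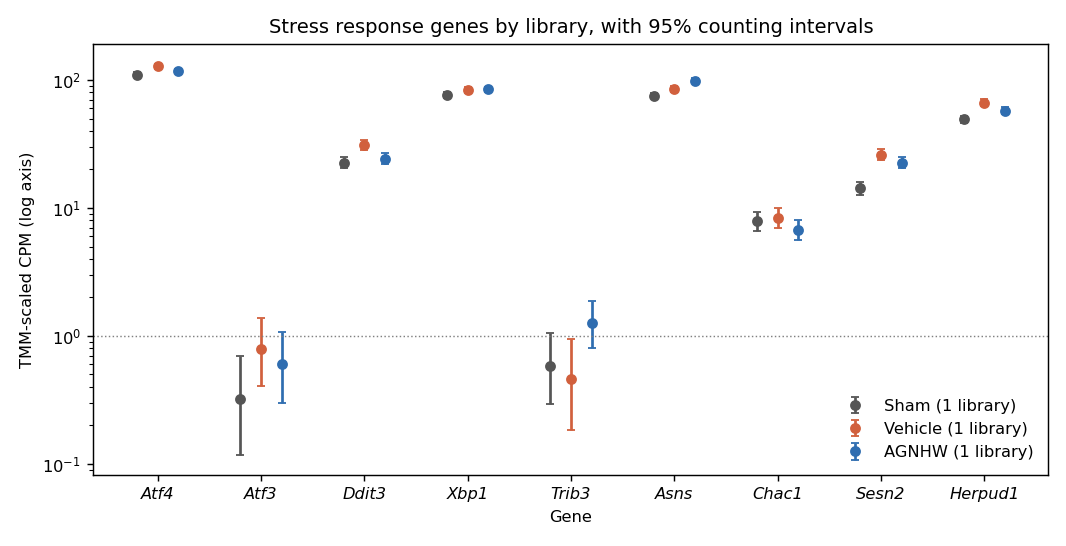
TMM-scaled CPM (log axis) of the 9 genes in the Sham, Vehicle and AGNHW libraries; points are single libraries, bars are 95% counting intervals and the dotted line is 1 CPM. Sesn2 is lowest in sham at 14.2 CPM, Asns is highest in AGNHW at 98.5 CPM, and Atf3 and Trib3 have wide bars.

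Vehicle and sham were compared to ask how occlusion altered the stress genes. Sesn2 was the only one of the 9 genes that passed the size rule, at 1.84-fold higher in vehicle (1.57 to 2.15). The rule asked for a ratio of at least 1.5 either way, a mean of at least 1 CPM over the libraries and a 95% counting interval that excludes 1. Over all 15558 genes compared, 8.66% passed as higher and 14.2% as lower, so 1 of the 7 genes abundant enough to be compared is a share near the background. The median log2 ratio of those 7 was 0.22, against 0.01 over all genes compared. Of all 9 ratios 8 were above 1 with each of the scalings tried (TMM, plain CPM, DESeq2 and upper-quartile). Once the trend of the ratio with transcript length and GC content was taken out, 4 were above 1. The median log2 ratio of the 7 genes was then -0.12, with 3 above 0 and 4 below, against -0.01 over all genes compared.

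Sesn2 encodes sestrin 2, a stress-induced leucine sensor that restrains the growth kinase complex mTORC1 and is a known target of both ATF4 and p53. Its level was 14.2 CPM in sham, from 268 counts, against 26.2 CPM in vehicle (398 counts) and 22.7 CPM in AGNHW (414 counts). The sham value lay below both others, whose counting intervals overlapped. With the length and GC trend taken out, the ratio of vehicle to sham was 1.54 (1.31 to 1.80). The pituitary, red cell and choroid plexus transcripts were also higher in vehicle than in sham. By the size rule defined above, 1 of 8 astrocyte markers was higher in vehicle (Aldh1l1, 1.65-fold) and 2 were lower (Aqp4 2.88-fold, Gfap 1.81-fold). Of 8 microglia markers 0 were higher and 2 lower (among them Cx3cr1, 2.41-fold). Of 8 endothelial markers 1 was higher and 2 were lower, and of 8 oligodendrocyte markers 1 and 1. Over all genes compared, 8.66% were higher and 14.2% lower. After length and GC correction, 1 astrocyte marker was higher and 2 lower, and 2 microglia markers were lower. Endothelial markers then had 0 calls, and 1 oligodendrocyte marker was higher and 0 lower. The part of these cell types in the Sesn2 ratio was not tested. In the AGNHW library Sesn2 was 1.59-fold higher than in sham (1.36 to 1.86). The length and GC correction ended that call (1.44, 1.23 to 1.68).

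Among the transcription factors, Atf4 had 110.3, 129 and 118 CPM in sham, vehicle and AGNHW. With TMM the vehicle value was above both others beyond counting error. With plain CPM the interval of the ratio of AGNHW to vehicle held 1, at 0.948 (0.891 to 1.01). The ratio of vehicle to sham was 1.17 (1.10 to 1.24), short of the size rule, and it was 0.906 (0.851 to 0.964) with the length and GC trend taken out, so its direction depended on that correction. Ddit3, which encodes the pro-apoptotic factor CHOP, had 22.6, 31.2 and 24.3 CPM in the same order. Its vehicle value was the highest, and the sham and AGNHW intervals overlapped. The ratio was 1.38 (1.21 to 1.58), and 0.920 (0.805 to 1.05) when corrected. Exons of Ddit3 overlap those of Mars1, the methionyl-tRNA synthetase gene, and of Gm4189 on the opposite strand, and the strand setting of the counts is not known. Mars1 had 48.8, 56.7 and 56.1 CPM and Gm4189 5, 7 and 13 counts, and the part of their reads in the Ddit3 values was not tested.

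Xbp1, the ER stress factor that IRE1 activates by splicing, had 75.9, 83.5 and 84.5 CPM. Sham was the lowest, but its counting interval overlapped that of vehicle, as that of vehicle did that of AGNHW. The ratio of vehicle to sham was 1.10 (1.02 to 1.19) and 0.921 (0.853 to 0.994) when corrected, so that it also changed direction; with plain CPM it was 1.03 (0.959 to 1.12). The counts do not separate spliced from unspliced Xbp1. Atf3, a stress-induced factor that marks injured neurons, had 6, 12 and 11 counts, which is 0.319, 0.789 and 0.602 CPM. All of its intervals overlapped, and the ratio of 2.47 (0.859 to 8.04) means that no difference could be detected at this depth.

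Among the effectors, Herpud1, a ubiquitin-like ER membrane protein that helps to clear misfolded proteins, had 49.4, 66.5 and 57.7 CPM. None of its counting intervals overlapped, with sham lowest and vehicle highest. The ratio of vehicle to sham was 1.35 (1.23 to 1.47), and 1.10 (1.01 to 1.21) when corrected. Asns, which makes asparagine, had 75.7, 85.5 and 98.5 CPM. Its intervals did not overlap either, with AGNHW the highest. The ratio of vehicle to sham was 1.13 (1.05 to 1.22), and the length and GC correction moved it little, to 1.10 (1.02 to 1.19). With plain CPM it was 1.06 (0.985 to 1.15), an interval that held 1.

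Chac1, an enzyme that breaks down glutathione and is a known ATF4 target, had 7.87, 8.42 and 6.79 CPM (148, 128 and 124 counts). All intervals overlapped. The ratio of vehicle to sham was 1.07 (0.838 to 1.36), and the corrected ratio was 0.775 (0.607 to 0.989). Trib3, a pseudokinase induced by ATF4 and CHOP that binds the kinase Akt, had 11 counts in sham, 7 in vehicle and 23 in AGNHW. Its ratio of 0.787 (0.259 to 2.22) leaves a difference between those libraries undetectable at this depth. Of the 4 genes with a match to the C/EBP-ATF element upstream, 3 had counts enough to compare. Their ratios of vehicle to sham were 1.07 (Chac1), 1.13 (Asns) and 1.35 (Herpud1), all inside 1.5-fold. When corrected, these were 0.775, 1.10 and 1.10. The compared genes without a match had uncorrected ratios from 1.10 (Xbp1) to 1.84 (Sesn2).

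**Figure D2:**
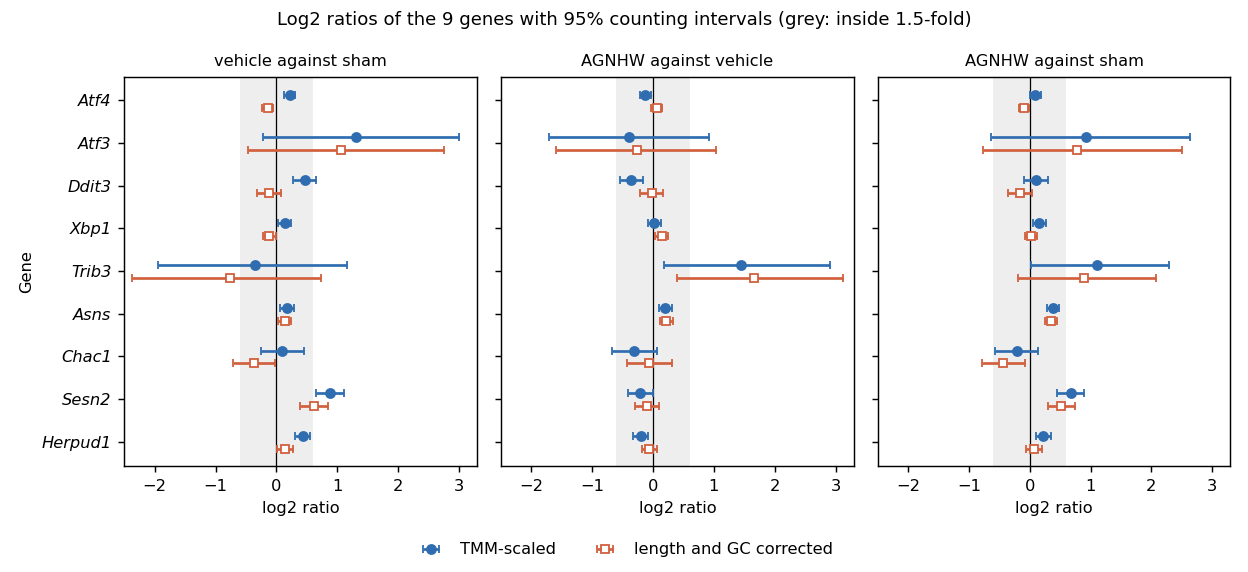
Log2 ratios of the 9 genes in the 3 comparisons; filled circles are TMM-scaled ratios, open squares the ratios after the trend with transcript length and GC content was taken out, bars 95% counting intervals, and the grey band the range inside 1.5-fold. In vehicle against sham the filled circle of Sesn2 is at 0.88 and its open square at 0.62, and the open squares of Atf4, Ddit3, Xbp1 and Chac1 lie below 0.

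The ratio of vehicle to sham followed transcript length across the whole transcriptome, and the 9 genes were read against that trend. Of 10 equal bins of length, the bin from 1363 to 1899 bases had a median log2 ratio of 0.32 and that from 1899 to 2387 bases one of 0.24. Most of the 9 transcripts fell in these bins, between 1637 bases (Chac1) and 2129 bases (Xbp1), with Ddit3 shorter at 890 bases and Sesn2 longer at 3475 bases. For genes of the length and GC content of Ddit3, the fitted log2 ratio was 0.58, above the 0.46 measured for Ddit3 itself. For Atf4 the fitted value was 0.36 and the measured value 0.22. For Sesn2 the fitted value was 0.26 and the measured value 0.88, and its length bin (3372 to 3940 bases) had a median near 0 with an upper quartile of 0.24. The fitted trend with length and GC accounted for 55.5% of the variance of the log2 ratio over 10074 genes of at least 10 CPM. The share of length alone was not computed, and what gave rise to the trend was not tested.

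**Figure D3:**
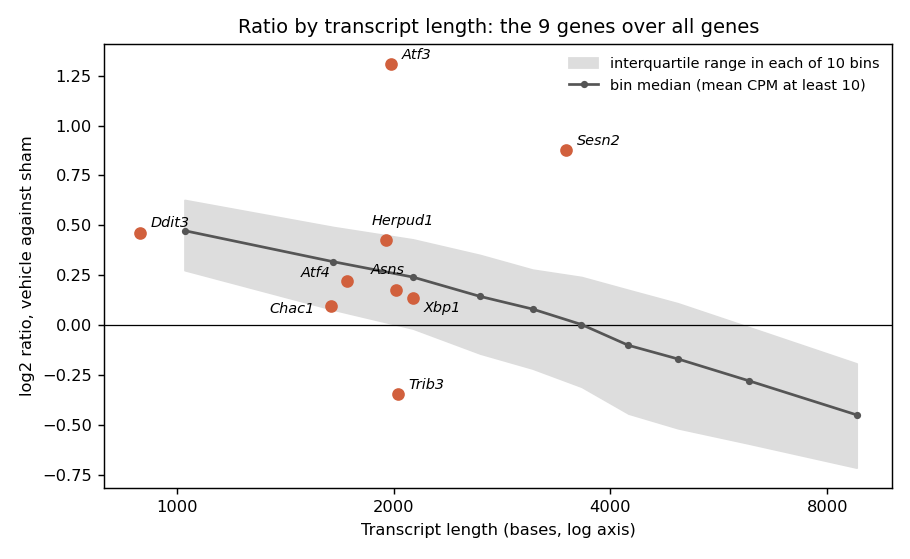
Log2 ratio of vehicle to sham against transcript length (log axis); the line and band are the median and interquartile range in 10 equal bins of genes with a mean of at least 10 CPM, and red points are the 9 genes. Sesn2 lies above the band for its length, Atf3 (6 and 12 counts) and Trib3 (11 and 7 counts) lie far from it on few counts, and the others lie in or beside the band.

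AGNHW and vehicle were compared to ask what the drug changed, which presumes that the treated mice had been occluded. None of the 9 genes passed the size rule, where 4.01% of all genes compared passed as higher and 2.56% as lower. Of the 7 genes abundant enough to compare, 5 were lower and 2 higher in AGNHW, with a median log2 ratio of -0.21 against 0.00 over all genes compared; corrected for length and GC content, the median was -0.02, with 4 lower and 3 higher. Both comparisons share the vehicle library.

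Asns was higher in AGNHW than in vehicle, with a ratio of 1.15 (1.07 to 1.24), and 1.16 (1.08 to 1.25) when corrected. Ddit3 had a ratio of 0.778 (0.682 to 0.888) and Herpud1 one of 0.867 (0.795 to 0.946). These became 0.983 (0.862 to 1.12) and 0.957 (0.877 to 1.04) after correction, so their counting intervals then held 1. Sesn2 had a ratio of 0.866 (0.753 to 0.997), which with plain CPM was 0.899 (0.782 to 1.03). Atf4 had a ratio of 0.913 (0.859 to 0.971), or 1.04 (0.978 to 1.11) when corrected and 0.948 (0.891 to 1.01) with plain CPM. Xbp1, Chac1 and Atf3 had intervals that held 1, at 1.01 (0.939 to 1.09), 0.807 (0.625 to 1.04) and 0.763 (0.305 to 1.89). When corrected, the Xbp1 ratio was 1.10 (1.02 to 1.19), and the intervals of Chac1 and Atf3 still held 1.

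Trib3 had the largest ratio of AGNHW to vehicle among the 9, at 2.74 (1.14 to 7.55), from 23 counts against 7. Its mean of 0.768 CPM is under the filter, and without the filter it would have passed the size rule. After correction the ratio was 3.17 (1.32 to 8.74). The counting intervals of the levels themselves, 0.798 to 1.89 CPM in AGNHW and 0.185 to 0.948 CPM in vehicle, overlapped.

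In AGNHW against sham, Sesn2 again was the only gene to pass the rule, at 1.59-fold higher, against a background of 3.32% higher and 5.47% lower. The corrected ratio of 1.44, given above, is inside 1.5-fold, so that 0 of the 9 then passed. Asns had a ratio of 1.30 (1.21 to 1.40), and 1.27 (1.19 to 1.37) when corrected. Herpud1 had 1.17 (1.07 to 1.28) and Xbp1 1.11 (1.04 to 1.20). When corrected, these became 1.05 (0.964 to 1.15) and 1.01 (0.942 to 1.09), and both intervals then held 1. Ddit3 had 1.07 (0.938 to 1.23) and Atf4 1.07 (1.003 to 1.13), and both ratios turned below 1 when corrected, to 0.893 (0.781 to 1.02) and 0.938 (0.883 to 0.997). Chac1 had 0.863 (0.674 to 1.10), or 0.739 (0.578 to 0.945) when corrected. Of all 9 ratios 8 were above 1 as scaled and 6 after correction. Trib3 had 2.15 (1.01 to 4.90) and Atf3 1.89 (0.640 to 6.22), both on few counts. The Trib3 ratio was 1.87 (0.874 to 4.24) when corrected and 2.10 (0.985 to 4.78) with plain CPM, and both intervals held 1. This comparison shares the sham library with the first and the AGNHW library with the second.

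The rest of the pathway was examined with 6 lists, whose counts are to be read against the 8.66% of all genes compared that were higher in vehicle than in sham and the 14.2% that were lower. Of 16 genes for eIF2 kinases, phosphatases and the exchange factor eIF2B, 2 (12.5%) passed as higher in vehicle than in sham and 1 (6.25%) as lower. The median log2 ratio was -0.17, and its sign turned to 0.07 after correction. Eif2ak2, which encodes the double-stranded RNA sensor PKR, was 2.94-fold lower in vehicle (2.14 to 4.11). The eIF2B subunit genes Eif2b3 and Eif2b2 were 1.69-fold (1.43 to 2.01) and 1.55-fold higher (1.42 to 1.70), and Eif2b2 did not pass with plain CPM or after correction. Eif2ak3, the gene of PERK, had 21.7, 15.2 and 16.9 CPM in sham, vehicle and AGNHW. Its ratio of vehicle to sham, 0.700 (0.593 to 0.825), was short of the size rule. In AGNHW against vehicle 0 of the 16 passed, and 1 passed as lower after correction.

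Of 40 other known ATF4 targets, 4 (10%) were higher in vehicle than in sham, near the share of all genes, and 2 (5%) lower, with a median log2 ratio of 0.23; when corrected, the median was 0.10 and the counts 2 and 0. Ddit4, an inhibitor of mTORC1, was 2.19-fold higher (2.04 to 2.35) and Stc2, a secreted glycoprotein of calcium handling, 1.80-fold higher (1.28 to 2.56). The cystine transporter gene Slc7a11 was 1.82-fold lower (1.55 to 2.15), a call that was lost after correction. Between AGNHW and vehicle 0 of the 40 passed. Ppp1r15a, whose product GADD34 directs the dephosphorylation of eIF2 and which the eIF2 list holds, had 21.3, 25.9 and 21.96 CPM. Its ratio of vehicle to sham, 1.22 (1.06 to 1.40), was short of the size rule.

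Hspa5, which encodes the main ER chaperone BiP, had 189, 184 and 179.9 CPM and a ratio of vehicle to sham of 0.974 (0.927 to 1.02). Of 28 chaperone and folding genes, 3 (10.7%) were higher in vehicle than in sham and 0 lower, with log2 ratios from -0.51 to 0.77 and a median of 0.03; these were the translocon subunit Sec61b at 1.70-fold (1.44 to 2.01), the isomerase Fkbp2 at 1.62-fold (1.51 to 1.74) and the BiP exchange factor Sil1 at 1.58-fold (1.39 to 1.80). None of the 3 passed after correction. Of 13 sensors and factors, 0 were higher and 2 (15.4%) lower, the protease gene Mbtps2 at 1.72-fold lower (1.42 to 2.09) and Ern1, the gene of IRE1, at 1.56-fold lower (1.23 to 1.98); neither passed after correction.

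Of 21 genes of ER-associated degradation, the route in which Herpud1 acts, 0 were higher in vehicle and 3 (14.3%) lower, the latter about the share of all genes. The median log2 ratio was 0.18, and 0.05 after correction. Edem3, a mannosidase-like protein that marks misfolded glycoproteins, was 2.35-fold lower (2.01 to 2.76). Edem1, of the same family, was 1.67-fold lower (1.38 to 2.03), and the ligase adaptor gene Sel1l was lower by a factor of 1.51 (1.41 to 1.62); of these 3 only Edem3 passed after correction. In AGNHW against vehicle the derlin gene Derl3 had 24 counts in AGNHW and 43 in vehicle, a ratio of 0.465 (0.270 to 0.783), and the ER-resident factor gene Cdnf was 2.17-fold higher (1.17 to 4.23), with 39 counts in AGNHW and 15 in vehicle. Each was the only gene of its list past the rule in that comparison, although with plain CPM each list had 2 genes past it.

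Of the 8 paralogues of the 9 genes, 1 was higher and 1 lower in vehicle than in sham, with a median log2 ratio of -0.41 (-0.23 when corrected). The sestrin gene Sesn3 was 1.69-fold lower (1.57 to 1.82) and did not pass after correction, where Sesn2 was higher; Sesn1 had a ratio of 0.972 (0.877 to 1.08). Herpud2 had a ratio of 0.722 (0.640 to 0.814), where that of Herpud1 was 1.35, or 1.10 when corrected. Both genes were short of the size rule. Atf5, a close relative of Atf4, was 1.57-fold higher (1.38 to 1.79), with no call under plain CPM or after correction.

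**Figure D4:**
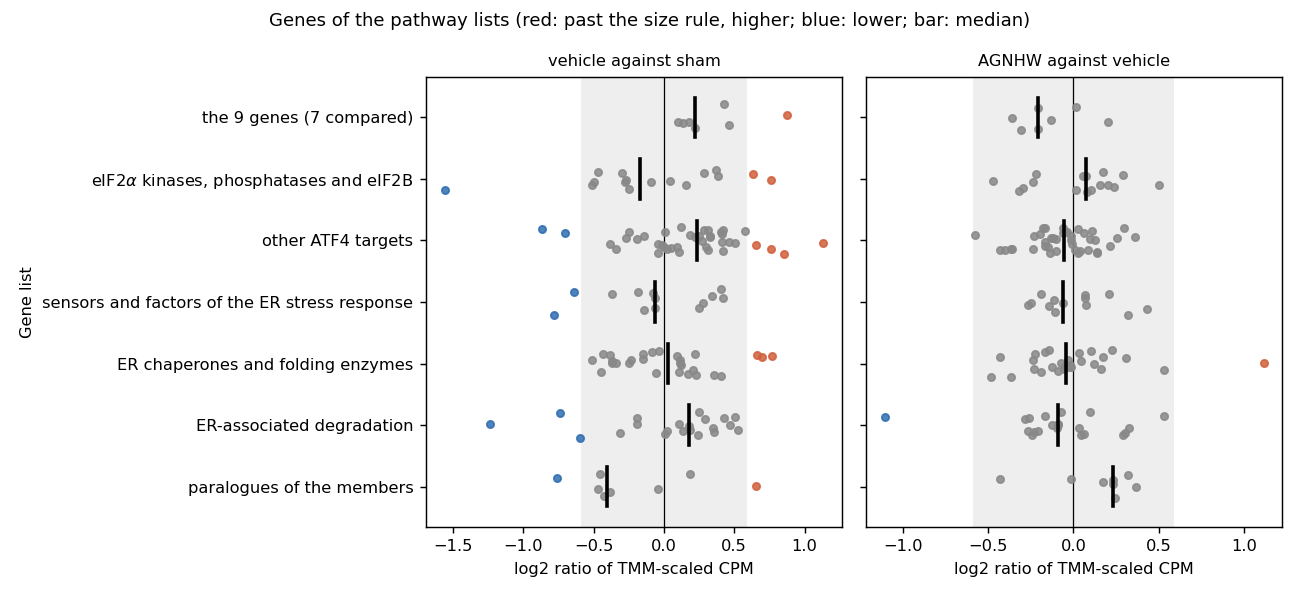
Log2 ratios of TMM-scaled CPM for the genes of each list with a mean of at least 1 CPM, in vehicle against sham (left) and AGNHW against vehicle (right); each point is a gene, black bars are list medians and the grey band is the range inside 1.5-fold. On the left Sesn2 is the only coloured point among the 9 genes, and on the right the only coloured points are Cdnf (higher) and Derl3 (lower).

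Likeness between genes was measured as the distance between their log2 ratios to sham in vehicle and in AGNHW, over 3 libraries and 124 genes of the lists. Closest to Sesn2 was Stc2, at a distance of 0.03, with log2 ratios of 0.85 and 0.68 against 0.88 and 0.67 for Sesn2. The next was Cebpb, a transcription factor that pairs with ATF4, at 0.21. Closest to Herpud1 were Sars and Rtcb, at 0.02 each, and closest to Atf4 was Pycr1 at 0.03. For Asns the nearest was Selenos at 0.10, and for Trib3 it was Cdnf at 0.36. With 3 libraries such distances describe the values and nothing more.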

How the data were processed

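Brain total RNA was sequenced by Illumina, per the labels. What the authors deposited were unnormalised read counts for 17992 gene symbols. Bowtie2 2.2.3, TopHat2 2.0.12 and HTSeq 0.6.0 with build mm9 are named in the submitters' processing notes; the labels give neither their order nor their settings or strand handling. No gene had fewer than 21 counts summed over the 3 libraries, so rarer genes were not analysed here.

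Libraries were grouped by title. Counts were scaled with TMM (edgeR 4.0.16, R 4.3.3), giving CPM. With 1 library per group the spread between animals is unknown; the conditions were not tested, p-values were not computed, and a ratio compares libraries. Level intervals are exact Poisson and ratio intervals exact conditional binomial (Clopper-Pearson), at 95%. They cover counting error only, and reads lacking molecular identifiers can be copies of 1 molecule. Promoter windows are RefSeq, GRCm38.p6, and their coordinates are of that build. Transcript length and GC content are those of the longest GENCODE M21 transcript, coding where there was one, found for 99.0% of symbols; the trend was a cubic surface. No other gene's transcript matched those of the 9 genes at 90% identity over 200 bases (BLAST 2.17.0). Python 3.11.15 was used with scipy 1.17.1, numpy 2.4.6 and pandas 2.3.3, and figures with matplotlib 3.10.9.

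The 9 genes, the lists and the size rule were chosen with earlier results of these data known. Named genes were the 9, the 3 of each pathway list with the largest absolute log2 ratio past the size rule in vehicle against sham and in AGNHW against vehicle, up to 3 markers per list and any at 0, and for each of the 9 its 2 nearest list genes, of which a selection is given. Eif2ak3, Ppp1r15a, Hspa5, Sesn1, Herpud2, Mars1 and Ern2 were named after their values were seen, as were the genes that overlap Ddit3. So were the markers Aldh1l1, Aqp4, Gfap and Cx3cr1, which passed the size rule. Alternatives were plain CPM, DESeq2 1.42.0 size factors, upper-quartile scaling, a fold limit of 2, no filter, a filter at a mean of 10 CPM, and the length and GC correction.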

Additional observations from a re-analysis of the deposited data

How the results depend on the processing

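No paired analysis was possible because each group has 1 library, and for the same reason no library could be left out. Of the 9 genes, 1 passed as higher in vehicle than in sham under each scaling, filter and correction tried, and 0 at a fold limit of 2. In AGNHW against sham the 1 gene that passed became 0 at a fold limit of 2 and 0 after length and GC correction, and 2 with no filter, which admitted Trib3. In AGNHW against vehicle 0 passed, and 1 (Trib3) with no filter. Over 108 recomputed ratios of the 9 genes, 1 call was lost (Sesn2, AGNHW against sham, log2 ratio 0.52 after correction), and 13 uncalled ratios moved outside their counting interval, all under the length and GC correction.

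Over all genes, the 1348 higher and 2207 lower in vehicle than in sham became 307 and 711 at a fold limit of 2, 710 and 1235 at a mean of 10 CPM, and 641 and 1069 after correction. With plain CPM 890 were higher. Of calls in this comparison 37.9% were higher with TMM and 23.9% with plain CPM; in AGNHW against vehicle these shares were 61.1% and 72.3%. The 624 higher and 398 lower in AGNHW than in vehicle became 175 and 116 at a fold limit of 2, and 137 and 73 at a mean of 10 CPM, with 245 lower after correction. The 517 higher and 851 lower in AGNHW than in sham became 179 and 192 at a fold limit of 2, and 119 and 313 at a mean of 10 CPM, with 520 lower after correction. A higher fold limit and a stricter filter admit fewer genes by construction; for plain CPM and the correction the cause was not tested. Depth limits Atf3 and Trib3, where 6 to 23 counts leave several-fold intervals.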

Other observations

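The aminoacyl-tRNA synthetase genes, which charge tRNAs with amino acids and are known targets of ATF4, were looked at as a group after their values had been seen. Of 12 such genes, 6 had a counting interval above 1 in vehicle against sham and 2 had one below, with ratios from 0.843 to 1.33, and 0 passed the size rule. Over all genes compared, 31.6% had an interval above 1 and 30.7% one below. After correction for length and GC content 7 lay above and 0 below, with ratios from 0.973 to 1.29, against 22.3% and 23.4% of all genes compared. Deeply counted genes have narrower intervals, and a subset chosen on its values supports nothing by its count. In AGNHW against vehicle the ratios ran from 0.884 to 1.08.

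Ern2, the relative of the IRE1 gene known from gut epithelium, had 5 counts in sham, 16 in vehicle and 7 in AGNHW. Its mean was under 1 CPM, and the ratio of vehicle to sham was 3.96 (1.39 to 13.8). Ern2 was named after its values were seen.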
